A study of Homo sapiens with 3 samples.

Results

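The genes described here encode the machinery that shortens, decaps, degrades, silences or protects messenger RNA (mRNA). The list names 58 genes of the CCR4-NOT and PAN deadenylases, AU-rich element binding, decapping, nonsense-mediated decay and microRNA pathways, grouped by function; the list was drawn up with earlier results of these data known. Of these, 57 were measured, through 108 transcripts, among 12629 named genes and 20104 transcripts in all. The member CPEB2 was not analysed here. The RNA came from SW480, an established line of human colon adenocarcinoma cells, transduced with either an shRNA (short hairpin RNA) targeting RBMS1 (shRBMS1, 1 library) or with control shRNA (shControl, 2 libraries) and collected 48 hours later. Both arms carry an shRNA, and a single hairpin stands for the knockdown. Whether the control libraries share 1 hairpin is not stated in the labels. The protein RBMS1 binds RNA at A+U-rich stretches such as AUAUA.

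Most mRNAs are degraded after their poly(A) tail has been shortened. CCR4-NOT and PAN2-PAN3 remove the tail, the DCP2 complex then removes the cap, and XRN1 digests the body of the RNA from its 5′ end. Proteins bound to the 3′ untranslated region (3′ UTR), such as those of the ZFP36 family, and microRNAs held by Argonaute and TNRC6 proteins recruit CCR4-NOT to chosen transcripts, while proteins such as the IGF2BPs and poly(A)-binding proteins protect theirs. Nonsense-mediated decay, led by UPF1, removes mRNAs with premature stop codons.

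Each value is a log2 fold change that the authors' deposited table gives for the knockdown relative to control, so a negative value means less RNA in the knockdown. Where a gene had several transcripts, their median was computed here as the gene value. The depth is unknown, since levels in single libraries were not analysed here, and with 1 knockdown library there is no replicate check, no error and no test of any difference below. In a bulk sample, fewer cells expressing a gene and less of its RNA per cell cannot be told apart. The sign was set so that the targeted gene, RBMS1, lies lower in the knockdown. Its transcripts NM_016836 and NM_002897 stood at 32.5% and 39.1% of control per the authors' deposited table, and the paralogue RBMS2 at 67.5%. Of 9 epithelial marker genes, 7 appear among the rows of the authors' deposited table, against 1 of 5 leukocyte markers, 0 of 6 fibroblast markers and 0 of 4 endothelial markers.

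The decay and silencing factors lay mostly a little lower in the knockdown. Of the 57 measured members, 40 (70.2%) lay below 0, where 48.5% of all genes did. Their median from the authors' deposited table was −0.16, or 89.4% of control, against 0.013 for all genes. The quartiles of the members were −0.38 and 0.047, and those of all genes −0.25 and 0.23. The 7 epithelial markers also lay mostly lower, with a median of −0.43 from the authors' deposited table, from −2.33 for VIL1 to 0.048 for KRT8. Among them KRT18 joins transcripts at −0.015 and −2.17 per the authors' deposited table. The part of these markers in the members' values was not tested. Large differences were rare. By gene values from the authors' deposited table, 1 member, TOB1, was lower by at least 1, and 3.94% of all genes were. Likewise 2 members, CPEB4 and AUH, were higher by at least 1, against 3.94% of all genes. The lower position therefore came from many small differences: 19 members (33.3%) lay below −0.3 per the authors' deposited table, against 22.0% of all genes, and 8 (14.0%) lay above 0.3, against 19.5%.

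**Figure D1:**
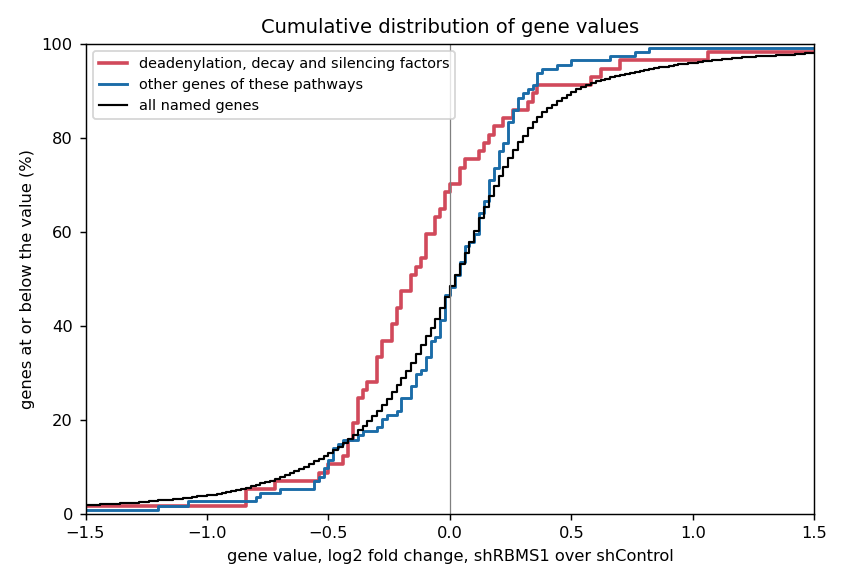
Share of genes at or below each gene value (vertical axis, %) against the gene value (horizontal axis, log2 fold change of shRBMS1 over shControl, shown from −1.5 to 1.5), for the 57 measured deadenylation, decay and silencing factors, 114 other genes of these pathways and all 12629 named genes. The curve of the factors reaches 70.2% at 0, left of the curves of the other pathway genes (48.2%) and of all genes (48.5%).

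Members with 1 measured transcript showed this most plainly. There were 26 of them, and 22 (84.6%) lay below 0 per the authors' deposited table, against 49.6% of all genes with 1 transcript. Their median per the authors' deposited table was −0.19, against 0.0027 for all genes with 1 transcript. The 4 above 0 were YBX1, XRN2, UPF3A and CNOT11, at 0.17, 0.15, 0.047 and 0.035 per the authors' deposited table. Among the 31 members with several transcripts, all transcripts lay below 0 for 5 and above 0 for 4, and 22 (71.0%) had transcripts on both sides, as 66.6% of all such genes did.

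RBMS1 binds A+U-rich sequence in the 3′ UTR, so the ATATA matches in the members' annotated 3′ UTRs are shown for some of those that lay on 1 side of 0 in all their transcripts. Each line gives 25 bases, 5′ to 3′ in DNA letters, from GENCODE 29 transcripts, with the ATATA match nearest the stop codon in capitals; all lie in a 3′ UTR exon. The first 6 genes lay below 0 in all their measured transcripts, CNOT2 and XRN2 lay above 0, and AGO3, also below 0, is shown for having the most matches of any member.
BTG3: ttcttaaaaaATATAtgcactttag
TIAL1: acaaattttgATATAataggaaaaa
ZFP36: tatagtatttATATAtattgggtcg
TOB2: gtagttttctATATAacatctttaa
CNOT6: tttgataaggATATAgtatgaaagc
BTG2: agagctatttATATAtattattttt
CNOT2: acgaatgtgtATATAttatatatat
XRN2: aaactagagtATATAttgttcagta
AGO3: atgtgcattcATATAttcttgtaaa
In GRCh38 these stretches lie at chr21:17593918-17593942 for BTG3, chr10:119575379-119575403 for TIAL1 and chr22:41436014-41436038 for TOB2, all on the minus strand. On the plus strand lie those of ZFP36 at chr19:39409227-39409251, CNOT6 at chr5:180574328-180574352, BTG2 at chr1:203307534-203307558, CNOT2 at chr12:70354646-70354670, XRN2 at chr20:21389713-21389737 and AGO3 at chr1:36056169-36056193. In BTG2 the match runs on from ATTTA, the core of the AU-rich element to which ZFP36 proteins bind, as the capitals mark in this overlapping stretch at chr1:203307530-203307554.
BTG2: atgaagagctATTTAtatatattat

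ATATA matches were common in the members. Of 54 members with an annotated 3′ UTR, 40 (74.1%) held ATATA, against 58.5% of 11216 genes, and the members' 3′ UTRs were longer, with a median of 1684 bases against 1124. By gene values from the authors' deposited table, members with a match had a median of −0.23 and members without one −0.15, against 0.015 and −0.0045 for all genes. In the authors' deposited table, the 14 members with 0 matches had a median of −0.15, the 19 with 1 to 4 matches −0.12 and the 21 with 5 or more −0.30. Over all genes these bins stood at −0.0045, 0.023 and 0.0029. Below 0 lay 78.6%, 52.6% and 81.0% of the members in these bins, against 50.4%, 47.6% and 49.5% of all genes. The difference between these bins was not tested. Single genes at the ends were AGO3, with 54 matches and a value of −0.076, and CNOT3, with 0 matches and −0.85, per the authors' deposited table. ATTTA was found in 47 of the 54 members (87.0%), against 70.3% of genes. A match counts these letters in this annotation and is not a measured binding site.

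**Figure D2:**
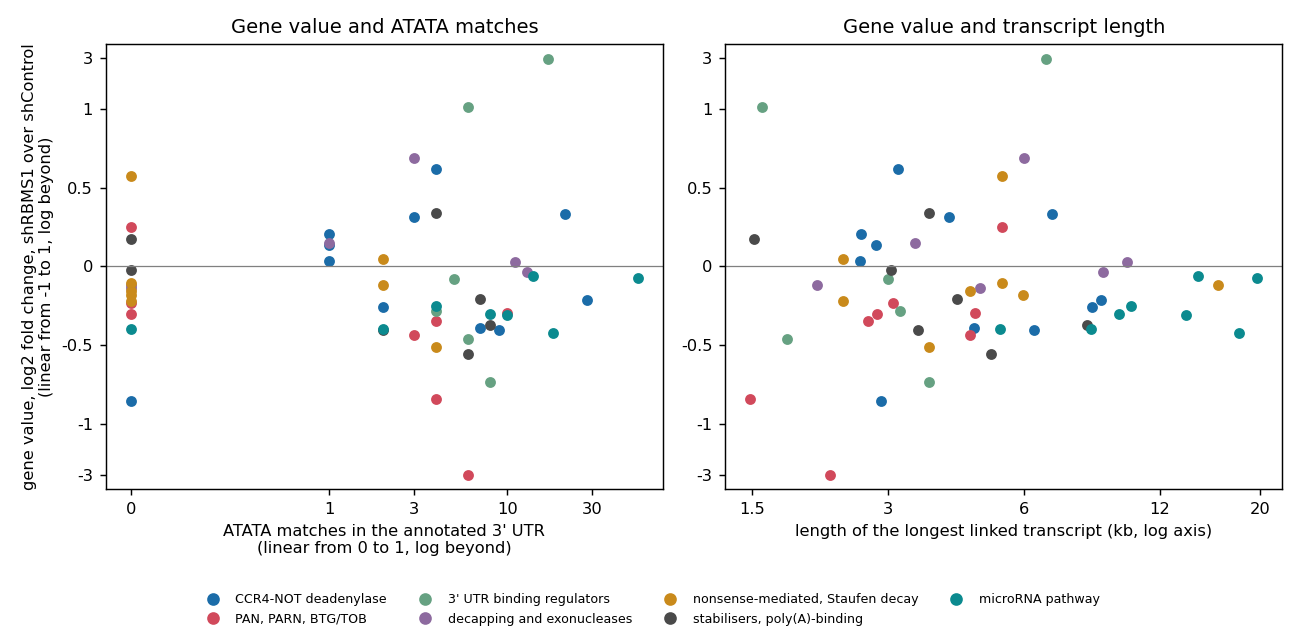
Gene values of 54 members (vertical axis, log2 fold change of shRBMS1 over shControl, linear from −1 to 1 and logarithmic beyond) against the number of ATATA matches in the annotated 3′ UTR (left, linear from 0 to 1 and logarithmic beyond) and the length of the longest linked transcript (right, kb, log axis), each point 1 gene coloured by role. Of the 14 members with 0 matches, 11 lie below 0, CNOT3 at −0.85 among them. The microRNA pathway genes lie below 0 and mostly at long transcripts.

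Members' transcripts were also long, and values ran with length over all genes; the part of length in the members' values was not tested. The median length was 4560 bases for members and 2960 for all genes with a length, and 14 members fell in the longest of 10 equal bins of all genes. By gene values from the authors' deposited table, that bin had a median of −0.11 and the shortest bin 0.087. With the median of each gene's length bin subtracted, a setting chosen after seeing the data, the members' median was −0.14 and 37 of 54 lay below 0. With the median of the bin of GC content subtracted, also chosen after seeing the data, it was −0.23, again with 37 of 54 below 0.

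The 11 measured genes of CCR4-NOT, the main cytoplasmic deadenylase complex, went both ways, with 5 below 0, 6 above 0 and a median of 0.035 from the authors' deposited table. CNOT3, a subunit of the NOT module at chr19:54137762-54155681 (hg38, as for all genes below), was lowest at −0.85 per the authors' deposited table, or 55.3% of control, percentile 5.37 of all genes. Its partner in that module, CNOT2, was highest at 0.62 per the authors' deposited table. The value of CNOT2 joins a coding transcript at 0.14 and a non-coding one at 1.10 per the authors' deposited table. CNOT1, the scaffold on which the complex is built, had all 4 transcripts below 0, at −0.45, −0.38, −0.14 and −0.097 per the authors' deposited table.

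The catalytic subunits of CCR4-NOT come in paralogous pairs, CNOT6 with CNOT6L and CNOT7 with CNOT8. CNOT6 had 1 transcript at −0.40 per the authors' deposited table. CNOT6L stood at −0.76 and 0.33 per the authors' deposited table. Here the paralogue with 1 transcript was lower and the other split. CNOT7 was at 0.30 and 0.37 per the authors' deposited table, both higher. CNOT8 had transcripts at −0.92, −0.059, 0.21, 0.85 and 0.91 per the authors' deposited table, a spread of 1.83. Its gene value of 0.21 thus stands for transcripts that lay far apart.

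The remaining CCR4-NOT genes stayed near 0 or split. CNOT9, which docks TNRC6 and ZFP36 proteins, had a gene value of 0.31 per the authors' deposited table. Its coding transcripts were at −0.059 and 0.31 and a non-coding one at 0.86 there. CNOT10 and CNOT11, which form a module at the amino-terminal end of CNOT1, were at 0.14 and 0.035 there. The value of CNOT10 lies between transcripts at −0.28 and 0.55 per the authors' deposited table. The ubiquitin ligase CNOT4, loosely tied to the complex in human cells, had 5 transcripts, at −0.82, −0.44, −0.39, 0.014 and 0.35 per the authors' deposited table.

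**Figure D3:**
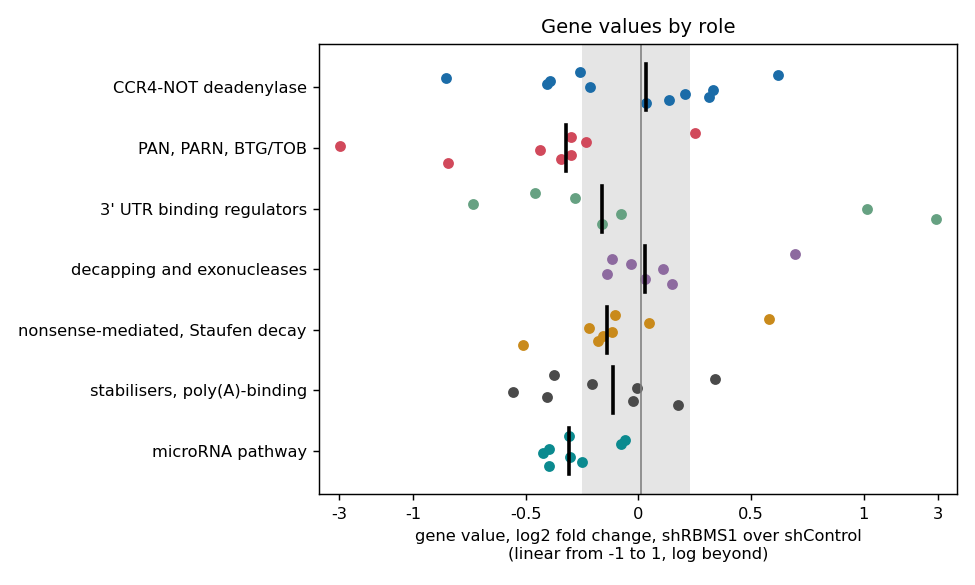
Gene values (horizontal axis, log2 fold change of shRBMS1 over shControl, linear from −1 to 1 and logarithmic beyond) of the 57 measured members by role, each point 1 gene and each black bar the median of its group. The grey band spans the quartiles of all genes, −0.25 to 0.23, and the grey line their median of 0.013. All 8 microRNA pathway genes lie below 0, and CCR4-NOT genes spread to both sides.

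Outside CCR4-NOT, the listed deadenylases and their adaptors lay mostly lower. Of the 8 genes here, 7 lay below 0, where 48.5% of all genes did. The median of the 8 from the authors' deposited table was −0.32, or 80.0% of control. PAN2, the catalytic subunit of the enzyme that starts tail shortening, was the exception at 0.25, with transcripts at 0.12 and 0.39 per the authors' deposited table. Its partner PAN3, which recruits it to mRNA, was at −0.30 per the authors' deposited table. PARN, a deadenylase that also trims the ends of small RNAs, had transcripts at −0.51 and 0.043 there. Other deadenylase-related genes, outside the list, went both ways by gene value. ANGEL1 was at −0.24, PDE12 at −0.056 and NOCT at −0.033, while TOE1 was at 0.044 and ANGEL2 at 0.36 per the authors' deposited table.

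BTG and TOB proteins bind CNOT7 or CNOT8 and slow proliferation. All 5 listed genes of this family, grouped after their values were seen, lay below 0 by gene value, where 48.5% of all genes did. A further family member outside the list, BTG4, lay above 0, at 0.17 from 1 transcript per the authors' deposited table. TOB2 was at −0.44, BTG2 at −0.34 and BTG1 at −0.30 per the authors' deposited table, each from 1 transcript. BTG3 had both transcripts below 0, at −1.51 and −0.18 per the authors' deposited table. TOB1, at chr17:50862223-50867978, had the lowest gene value of all members, −2.96, yet its 3 coding transcripts stood at −9.65, −2.96 and 1.08 per the authors' deposited table. No transcript of the authors' deposited table lay beyond 10 in either direction and 109 lay between 9 and 10, so the −9.65 is near the end of its range. TOB1 moved to −0.94 with the longest transcript or without transcripts beyond 5, and to 1.08 with the least changed transcript. Without levels, such a value may reflect RNA close to absent in either arm, which cannot be told apart here from a large change.

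Among proteins that bind the 3′ UTR to direct decay or tail length, 5 of 7 measured genes lay below 0, where 48.5% of all genes did. The median of the 7 from the authors' deposited table was −0.16. The ZFP36 family, zinc finger proteins that bring CCR4-NOT to AU-rich elements, had all 3 gene values below 0, as a group formed after the values were seen. ZFP36L2, at chr2:43222402-43226606, was at −0.74, or 60.0% of control, per the authors' deposited table. ZFP36, also called tristetraprolin, at chr19:39406847-39409407, was at −0.46, or 72.7% of control, per the authors' deposited table. ZFP36L1 had transcripts at −0.57 and 0.0054 there, so 1 of its transcripts did not share the lower value. KHSRP, which also binds AU-rich elements and recruits decay enzymes, was at −0.078 per the authors' deposited table.

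The high values in this group rest on single transcripts. CPEB4, a cytoplasmic polyadenylation element binding protein at chr5:173888349-173961980, had the highest gene value of all members, 2.90, midway between transcripts at −2.10 and 7.91 per the authors' deposited table. AUH, an AU-binding protein that is also a mitochondrial enzyme of leucine breakdown, was at 1.06 from transcripts at −0.10 and 2.22 per the authors' deposited table. PUM2, a Pumilio protein that recruits CCR4-NOT, had transcripts at −0.62, −0.16 and 0.65 there. For none of these genes did all transcripts go one way.

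Decapping factors and exonucleases showed no common direction. Of 7 genes 3 lay below 0 and 4 above, with a median of 0.028 from the authors' deposited table. The decapping enzyme DCP2 was at −0.034, and EDC4, the scaffold of the decapping complex, at −0.14 per the authors' deposited table. XRN1, the cytoplasmic 5′ to 3′ exonuclease, had transcripts at −0.076, 0.028 and 0.049 per the authors' deposited table. Its nuclear relative XRN2, which also acts in transcription termination, was at 0.15 there.

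The DCP2 activators differed by transcript. DCP1A had transcripts at −0.42 and 1.81 per the authors' deposited table, which gave it the highest gene value of the group, 0.69. Its paralogue DCP1B was at −0.12 there. EDC3, an enhancer of decapping, had transcripts at −0.79 and 1.01 per the authors' deposited table and a gene value of 0.11. The gene values of DCP1A and EDC3 thus lie between transcripts on either side of 0.

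Of 8 genes of nonsense-mediated and Staufen decay, 6 lay below 0, where 48.5% of all genes did. The median of the 8 from the authors' deposited table was −0.14. Most of the 8 were nearer to 0 than the lower quartile of all genes. The helicase UPF1 had transcripts at −0.29 and 0.083 per the authors' deposited table. SMG1, the kinase that phosphorylates UPF1, was at −0.12, SMG5, which binds phosphorylated UPF1, at −0.16 and the endonuclease SMG6 at −0.18, each from 1 transcript per the authors' deposited table. STAU1, a double-stranded RNA-binding protein that brings UPF1 to 3′ UTRs, was lowest at −0.51. Its 5 transcripts per the authors' deposited table stood at −0.79, −0.54, −0.51, −0.22 and 0.070, with 4 of 5 below 0.

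UPF2 bridges UPF1 to the exon junction complex through the UPF3 proteins. It was highest of the group at 0.58 per the authors' deposited table, from transcripts at 0.043 and 1.11. UPF3A was at 0.047, and UPF3B had transcripts at −0.46 and 0.013 per the authors' deposited table. These bridging factors thus did not share 1 direction.

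Proteins that protect mRNA or bind its tail had 6 of 8 genes below 0, against 48.5% of all genes. The median of the 8 from the authors' deposited table was −0.11. TIAL1, a stress granule protein that represses translation from A+U-rich 3′ UTRs, had both transcripts lower, at −0.62 and −0.49 per the authors' deposited table, and a gene value of −0.56, or 67.9% of control. Its paralogue TIA1 was near 0, with transcripts at −0.093 and 0.077 per the authors' deposited table. PABPC1, the main cytoplasmic poly(A)-binding protein, was at −0.41 per the authors' deposited table, or 75.4% of control. PABPC4, a relative of PABPC1, had transcripts at −0.41, −0.023 and 0.46 there. TIAL1 and PABPC1 were thus lower, while their respective relatives TIA1 and PABPC4 had gene values near 0.

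IGF2BP proteins are oncofetal proteins that shield mRNAs such as that of MYC. IGF2BP1 was at −0.38 and IGF2BP3 at −0.21 per the authors' deposited table, each from 1 transcript. IGF2BP2 had 4 transcripts per the authors' deposited table, 2 of them lower, at −0.88 and −0.58, and 2 higher, at 1.26 and 1.92. Its gene value of 0.34, the highest of the group, lies in the gap between them. YBX1, a cold shock domain protein that packages mRNA, was at 0.17 per the authors' deposited table.

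The microRNA pathway was the only role group with all of its measured genes below 0, 8 of 8, where 48.5% of all genes were. Its median from the authors' deposited table was −0.31, or 80.9% of control. The values of the 8 genes were small and alike, between −0.42 and −0.059 per the authors' deposited table, and none was lower by at least 1. Other microRNA pathway genes, outside the list, went both ways by gene value. Among them AGO4 was at −0.074 and TARBP2 at −0.57, while DGCR8 was at 0.021, PRKRA at 0.027 and XPO5 at 0.0062 per the authors' deposited table. The value of TARBP2 joins transcripts at −7.15, −0.57 and 0.66 there. MOV10 at −0.55, LIMD1 at −0.29, FAM120A at −0.14 and WTIP at −0.11 also lay lower by gene value, and AJUBA at 0.13 lay higher. TNRC6 proteins are the scaffolds that link Argonaute to CCR4-NOT. TNRC6A was at −0.40 from 1 transcript per the authors' deposited table. TNRC6C had both transcripts lower, at −0.42 and −0.19 per the authors' deposited table. TNRC6B had transcripts at −0.88 and 0.030 there, and the lowest gene value of the group at −0.42.

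Argonaute proteins hold the microRNA and find its targets. AGO1 and AGO3 are neighbours on chromosome 1, at 35869761 to 35930532 and 35930718 to 36072500. AGO1 was at −0.31 per the authors' deposited table, or 80.8% of control, and AGO3 at −0.076. AGO2, the Argonaute that can cut its target, was at −0.059 there, or 96.0% of control. AGO1 thus lay lower than the other Argonautes, which were within 0.1 of 0.

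The enzymes that make microRNAs had gene values below 0, but only DROSHA had all its transcripts there. DROSHA, which cuts primary microRNAs in the nucleus, had both transcripts lower, at −0.59 and −0.21 per the authors' deposited table. DICER1, which cuts the hairpin precursors in the cytoplasm, had transcripts at −7.72, −0.59, 0.086 and 1.28 per the authors' deposited table and a gene value of −0.25. It turned to 0.086 with the least changed transcript and without transcripts beyond 5. These microRNA pathway transcripts were the longest of any role group, with a median of 12020 bases. With the length bin subtracted their median was −0.19, and AGO2 and AGO3 moved to 0.055 and 0.037. Taking each gene's least changed transcript, the group's median was −0.13. Of the 8 genes, 7 lay below 0 with the longest transcript or without transcripts beyond 5, and 6 with the least changed transcript or the length bin subtracted.

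Differences among transcripts of 1 gene were of the same order in members as elsewhere. Of the 31 members with several transcripts, 13 (41.9%) had transcripts over 1 apart per the authors' deposited table, against 49.3% of all such genes. They were CPEB4, TOB1, DICER1, IGF2BP2, AUH, DCP1A, CNOT8, EDC3, BTG3, PUM2, CNOT4, CNOT6L and UPF2. The gap was 10.7 for TOB1, 10.01 for CPEB4 and 8.998 for DICER1 per the authors' deposited table, and from 1.07 to 2.80 for the other 10. All 3 transcripts of members beyond 5 in either direction belong to TOB1, CPEB4 and DICER1, and all 3 are coding. Of all 108 member transcripts 67 lay below 0 and 41 above, with 5 at or below −1 and 10 at or above 1 per the authors' deposited table. The same shares over all transcripts are not given here, so these counts cannot be called many or few. The median of the member transcripts was −0.13, against 0.016 for all named transcripts, per the authors' deposited table. The sources used here do not say how reads were shared between transcripts of 1 gene.

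**Figure D4:**
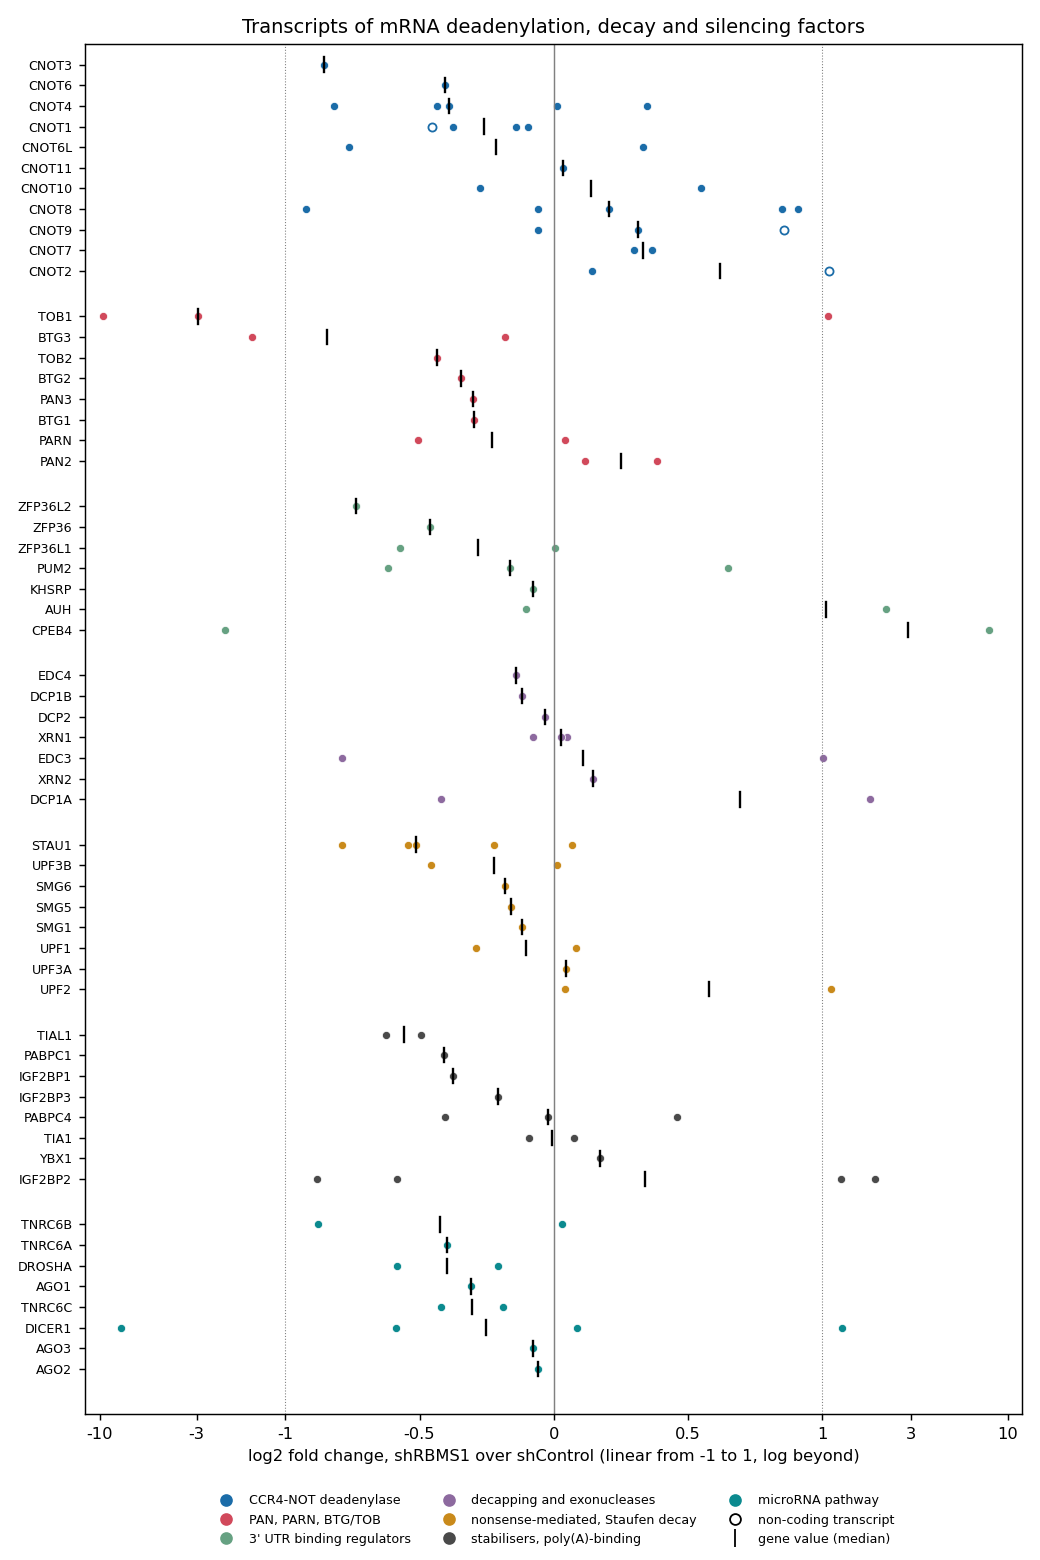
Every transcript of the 57 measured members (points) by gene and role, with its log2 fold change of shRBMS1 over shControl on the horizontal axis (linear from −1 to 1, logarithmic beyond). Black bars mark gene values, open points non-coding transcripts and dotted lines −1 and 1. Transcripts of TOB1, CPEB4 and DICER1 spread widest, from −9.65 to 1.08 for TOB1, while most genes with 1 transcript lie just left of 0.

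Other genes of the same pathways did not share the lower position. A list of 121 further genes held exosome, LSM, exon junction, RNA-binding and microRNA pathway genes, and 114 were measured. Of these 55 lay below 0 and 59 above, with 3 at or below −1, 1 at or above 1 and a median of 0.018 from the authors' deposited table. Among the lowest were SKIC8, a subunit of the Ski complex that feeds RNA to the exosome, at −3.55 and the uridylyltransferase TUT7 at −1.22 per the authors' deposited table. SKIC8 joins transcripts at −7.28 and 0.18, and TUT7 transcripts at −5.83, −1.22 and 0.82 per the authors' deposited table. Highest were ELAVL2, an RNA-binding protein mainly of neurons, at 5.74, the exosome nuclease DIS3 at 0.81 and the exosome subunit EXOSC3 at 0.75 per the authors' deposited table. The transcripts of ELAVL2 were at 1.51 and 9.96, those of DIS3 at 0.26 and 1.36, and those of EXOSC3 at 0.055 and 1.45 per the authors' deposited table. The difference in median between the members and these genes was not tested, since the knockdown has 1 library.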

How the data were processed

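Groups follow the labels' shRNA field. STAR 2.5 and Cufflinks with Cuffdiff, on hg38, are listed without roles or settings per the submitters' processing notes; per the labels, ribosomal RNA was removed before library preparation. The authors deposited 1 table of log2 fold changes for 20104 transcripts. Its header gives neither base nor direction. Base 2 was taken from spacing: 20 transcripts differed by 1, within 1.5e-05, from a value shared by 3 or more transcripts, against 4 and 5 at distances of ln 2 and log10 of 2. Direction was taken from RBMS1; the other direction would turn every sign.

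RefSeq's gene table for GRCh38.p14 named 19818 transcripts, and GENCODE 29 links named 140 more, CNOT6 among them; 146 stayed unnamed. Transcripts of a gene were joined by their median. Transcript length, GC content and 3′ UTRs came from GENCODE 29, using the longest linked transcript; PUM2, EDC3 and TIA1 had no link. No sequence was printed from chromosome 8. Thresholds were 1 on the log2 scale.

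The members, lists and settings were chosen with earlier results of these data known. Named were every member beyond 1 or with transcripts over 1 apart, the 2 highest and 2 lowest of each role group, and the 3 highest and 3 lowest other pathway genes, with further members chosen after their values were seen. A gene that this rule names is not reported here. Alternatives were the mean, longest, least changed or coding transcripts, centring, genes with 1 transcript, transcripts within 5 of 0, other thresholds, and length or GC bins. The arithmetic of the summaries was checked on permuted gene values with a known shift added, which tests no result. Python 3.11.15, numpy 2.4.6 and pandas 2.3.3 were used.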

Additional observations from a re-analysis of the deposited data

How the results depend on the processing

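The members' median stayed below 0 under all 10 alternatives tried, from −0.23 to −0.10, and the count of members below 0 stayed between 35 and 40 except among genes with 1 transcript, where it was 22 of 26. Counts past the threshold were too small to be steady. Members lower by at least 1 numbered 2 with the mean or the longest transcript, 0 among genes with 1 transcript and 4 at a threshold of 0.58. They were DICER1 with TOB1 for the mean, and BTG3 with DICER1 for the longest transcript; with the least changed transcript or without transcripts beyond 5, CPEB4 took the place of TOB1. Members higher by at least 1 numbered 1 with the least changed transcript, without transcripts beyond 5, with either bin subtracted or at a threshold of 2, then 0 among genes with 1 transcript and 4 at 0.58. With a gap of 2 in place of 1, 6 members had transcripts apart. By gene values, 7.02% of members and 10.5% of all genes lay at or below −0.58. At or below 0.58 lay 93.0% of members and 91.7% of all genes. Shares over all genes under the other alternatives are not given here, so those counts cannot be called many or few. Role group medians moved more, and the cause was not tested. CCR4-NOT stood at 0.14 with the longest and −0.059 with the least changed transcript, −0.40 among genes with 1 transcript and −0.0025 with the length bin subtracted. Decapping factors and exonucleases stood at −0.0030, −0.12 and −0.076 under the first 3 of these and at −0.069 with the GC bin subtracted. The 3′ UTR binding group stood at −0.28 with the longest transcript and without transcripts beyond 5, and at −0.46 among genes with 1 transcript. The microRNA pathway stood at −0.20 with the longest and −0.13 with the least changed transcript, and at −0.19 both among genes with 1 transcript and with the length bin subtracted. Nonsense-mediated and Staufen decay stood at 0.028 with the least changed transcript. Stabilisers and poly(A)-binding proteins stood at −0.41 with the longest and −0.29 with the least changed transcript, among genes with 1 transcript and with the GC bin subtracted. Of 35 genes followed singly under the alternatives, RBMS1 among them, 18 moved by more than 0.58 or changed sign under at least 1, 17 of them with a change of sign. Other members described above were not followed singly and can change sign too. With the least changed transcript, ZFP36L1 would stand at 0.0054 and UPF1 at 0.083. Among those with a value beyond 1, AUH was at −0.10 with the longest or least changed transcript, CPEB4 at −2.10 with the least changed transcript or without transcripts beyond 5, and TOB1 at 1.08 with the least changed transcript. Among the others, DCP1A reached −0.42, IGF2BP2 −0.88, EDC3 −0.79, STAU1 0.070 and DICER1 0.086. No paired analysis was possible because the table holds 1 value per transcript for both arms together. Leaving out a library was not possible for the same reason, and the depth behind the values is unknown.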

Other observations

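Within the other pathway genes, the subunits of 2 decay complexes, grouped after their values were seen, lay mostly above 0. The RNA exosome degrades RNA from its 3′ end. Of EXOSC1 to EXOSC10, which encode its subunits, 8 of 10 lay above 0, where 6507 of all 12629 genes did. Their median was 0.13 from the authors' deposited table, and EXOSC6 was lowest at −0.044. LSM1 to LSM7 form the ring that binds shortened tails before decapping. Here 6 of 7 lay above 0, again beside 6507 of all 12629 genes. The median of the 7 was 0.21 from the authors' deposited table, from −0.024 for LSM2 to 0.48 for LSM1. The transcripts of both groups were short, with a median length of 1364 bases for the exosome genes and 1908 for the LSM genes, against 4560 for the members. The part of transcript length in these values was not tested.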
